A study of Homo sapiens with 8 samples.

Results

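The H/ACA small nucleolar RNAs and the small Cajal body RNAs were followed as a single set across 4 human cell lines. Members were all rows of the deposited expression table whose symbol begins with SNORA or SCARNA, which gave 105 SNORA and 24 SCARNA rows, 129 of 23615 rows in all. Total RNA was depleted of ribosomal RNA and sequenced from 2 libraries each of U937 (labelled leukemic), EaHy (labelled endothelial), PC3M (labelled prostate cancer; its growth protocol names PC3M-LN4) and HEK293 (labelled embryonic kidney). The study set 3 lines that bind EET (epoxyeicosatrienoic acids, lipid mediators made from arachidonic acid) against HEK293, which does not, to look for G protein-coupled receptors. No treatment or engineered allele is labelled for any group, though the deposited table's sheet name adds a t, as in HEK293T (a derivative that carries SV40 large T antigen), where the labels give HEK293; U937, EaHy and PC3M grew in RPMI medium and HEK293 in DMEM, so binding, medium and line cannot be told apart. RNA came from cells taken in duplicate, and the labels do not say whether the duplicates were separate cultures, so p-values measure only the spread between these libraries, which may be technical.

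The defining markers of each line were measured as a check of the labels. All 5 U937 markers were higher in U937 than in HEK293, and 1 of them (CD33) also in EaHy. Of 5 EaHy markers, 3 (CDH5, TEK, PECAM1) were higher in EaHy and 1 (PECAM1) also in U937. Of 5 PC3M markers, 3 (KRT19, EPCAM, CD44) were higher in PC3M, 3 (KRT8, KRT18, CD44) in EaHy and 1 (CD44) in U937. Lower in U937, EaHy and PC3M were 4, 3 and 4 of 5 HEK293 markers (limma against HEK293, adjusted p under 0.05 for all these counts). EaHy replicate 2 and both PC3M libraries stood apart from the other 5 in summed FPKM, which ran from 1337962 to 1926028 against 497389 to 647103. Their share of all genes listed at 0 averaged 32.1% against 15.9%. By this share PC3M replicate 2, at 25.7%, was only just above HEK293 replicate 1, at 25.1%. FPKM (fragments per kilobase of transcript, scaled to the mapped fragments of each library) was the only unit available, so fragment counts and depth are unknown.

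H/ACA RNAs fold into hairpins that pair with a target RNA and direct the conversion of a chosen uridine to pseudouridine by dyskerin (DKC1), which works with NHP2, NOP10 and GAR1. SNORA RNAs act mainly on ribosomal RNA in the nucleolus, whereas SCARNA RNAs reside in Cajal bodies and act mainly on spliceosomal small nuclear RNAs. Most SCARNA RNAs are also of the H/ACA type, others carry C and D boxes and guide 2′-O-methylation, and a few combine both kinds of domain. In human cells nearly all of these RNAs are cut out of introns of host genes, many of which encode ribosomal proteins or translation factors.

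The sequences below show what the class has in common and stand for the patterns described afterwards. SNORA63 and SNORA48 were among the most abundant members in 3 libraries, and SNORA28 and SCARNA5 were high there and at or near 0 elsewhere. SNORA61, SNORA40 and SCARNA22 had high values in all 8 libraries, and SNORA56, SNORA29 and SNORA5B differed from HEK293 in U937 or EaHy. They are GENCODE transcripts of build GRCh38, written 5′ to 3′ with DNA letters. Capitals mark the ACA found within the last 8 bases and the match to ANANNA, the H box pattern, that lies nearest the middle. SCARNA5, SNORA40 and SNORA29 have no ACA in that window, and in SCARNA5, which joins both kinds of domain, nothing is marked.

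SNORA63: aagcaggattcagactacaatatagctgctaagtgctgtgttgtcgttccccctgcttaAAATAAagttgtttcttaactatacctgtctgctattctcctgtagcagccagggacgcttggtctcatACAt
SNORA48: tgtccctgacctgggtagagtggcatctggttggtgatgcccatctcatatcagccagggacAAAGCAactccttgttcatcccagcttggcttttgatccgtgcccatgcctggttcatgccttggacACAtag
SNORA28: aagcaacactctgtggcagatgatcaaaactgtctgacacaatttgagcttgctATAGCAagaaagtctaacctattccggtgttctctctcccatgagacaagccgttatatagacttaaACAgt
SCARNA5: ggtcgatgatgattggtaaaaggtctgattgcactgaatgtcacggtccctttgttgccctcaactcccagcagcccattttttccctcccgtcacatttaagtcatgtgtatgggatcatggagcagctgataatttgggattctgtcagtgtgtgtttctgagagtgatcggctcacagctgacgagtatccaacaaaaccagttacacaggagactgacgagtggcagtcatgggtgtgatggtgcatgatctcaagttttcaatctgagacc
SNORA61: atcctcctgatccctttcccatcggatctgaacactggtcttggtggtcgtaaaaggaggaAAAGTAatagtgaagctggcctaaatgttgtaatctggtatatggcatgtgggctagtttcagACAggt
SNORA40: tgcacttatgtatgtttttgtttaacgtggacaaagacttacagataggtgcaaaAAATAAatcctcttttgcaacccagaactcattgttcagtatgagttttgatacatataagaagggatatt
SCARNA22: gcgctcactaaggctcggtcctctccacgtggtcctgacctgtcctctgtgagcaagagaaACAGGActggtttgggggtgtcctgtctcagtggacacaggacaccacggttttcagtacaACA
SNORA56: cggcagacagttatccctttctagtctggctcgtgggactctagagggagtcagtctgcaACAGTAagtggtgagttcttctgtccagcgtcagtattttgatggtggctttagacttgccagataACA
SNORA29: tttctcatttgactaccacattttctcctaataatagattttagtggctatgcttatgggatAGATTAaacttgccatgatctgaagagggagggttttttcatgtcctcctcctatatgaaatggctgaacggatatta
SNORA5B: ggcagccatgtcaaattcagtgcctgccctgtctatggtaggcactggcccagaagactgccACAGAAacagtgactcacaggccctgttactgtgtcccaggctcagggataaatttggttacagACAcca

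A GENCODE sequence was matched to 120 members, 8 of them through an older symbol. Their lengths ran from 121 to 420 nt with a median of 134 nt, and 117 of the 120 were no longer than the 300 bp average insert stated for the libraries. ACA stood within the last 8 bases of 92 of 100 SNORA sequences and of 13 of 13 H/ACA-type SCARNA sequences, against 0 of 3 C/D-type and 1 of 4 mixed SCARNA sequences. Among 231 C/D box RNAs (SNORD rows) of the same table, 4.76% had it. ANANNA in the middle of 3 equal stretches was found in 112 of 120 members (93.3%) and in 36.4% of the SNORD sequences. TGAG, the letters of the CAB box that WRAP53 binds for delivery to Cajal bodies, stood anywhere in 13 of 20 SCARNA and in 43 of 100 SNORA sequences. It was also in 87.0% of SNORD sequences, so these 4 letters alone did not set SCARNA apart. Only the printed strand was searched, and a match is a match of letters, not a mapped site.

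Of the 1032 member values (129 rows in 8 libraries), 226 were listed at 0, which is 21.9% and close to the 21.98% of all genes. The zeros were spread unevenly. In EaHy replicate 2 and both PC3M libraries 45 of 387 member values were at 0 (11.6%), while all genes had 32.1% there. In the other 5 libraries 181 of 645 member values were at 0 (28.1%), while all genes had 15.9%. By library, 45 and 32 members were at 0 in U937, 50 and 24 in HEK293, 30 and 14 in EaHy, and 19 and 12 in PC3M, replicate 1 always first. The members thus had fewer zeros in the 3 libraries in which the rest of the table had more, though PC3M replicate 2 had more by little. An exact 0 can be a failed estimate in files of this kind: PRRC2A, the host gene of SNORA38, was also at 0 in all 8 libraries.

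Members at 0 in every library were SNORA35, which lies in an intron of the serotonin receptor gene HTR2C and is known as a brain-specific RNA, and SNORA38. Above 0 in all 8 libraries were 43 members. SCARNA23, SNORA28 and SNORA79 were at 0 in all 5 of the other libraries and above 0 in all 3 that stood apart. A further 2 positive values lay under 0.001 FPKM, the smallest at 7.99e-205, and are treated as deposited.

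The summed FPKM of all members differed between libraries by orders of magnitude. It was 3276 and 2931 in U937, 6041 and 2806 in HEK293, 3007 and 606716 in EaHy, and 90643 and 463279 in PC3M. These sums were 0.523% and 0.469% of all FPKM in U937, 0.934% and 0.458% in HEK293, 0.605% and 31.5% in EaHy, and 6.77% and 31.1% in PC3M. The 5 low libraries lay within a narrow band whatever their line, and the duplicates of EaHy fell on opposite sides of the gap. In bulk RNA a higher level in every cell and a larger share of cells with a high level cannot be told apart.

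The median member was at 0.672 and 5.83 FPKM in U937, 10.4 and 6.09 in HEK293, 1.86 and 1257 in EaHy, and 215.5 and 1075 in PC3M. Values of 1000 FPKM or more were reached by 69 members in EaHy replicate 2, 29 in PC3M replicate 1 and 66 in PC3M replicate 2, and by 0 members in the other 5 libraries. The 10 most abundant members held 40.7% to 57.3% of the member sum in each library, so the rise was not carried by a single RNA. The most abundant member was SCARNA22 in U937 replicate 1, SNORA61 in U937 replicate 2 and EaHy replicate 1, SNORA70 and SNORA64 in HEK293 replicates 1 and 2, SNORA63 in EaHy replicate 2 and PC3M replicate 2, and SNORA43 in PC3M replicate 1.

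**Figure D1:**
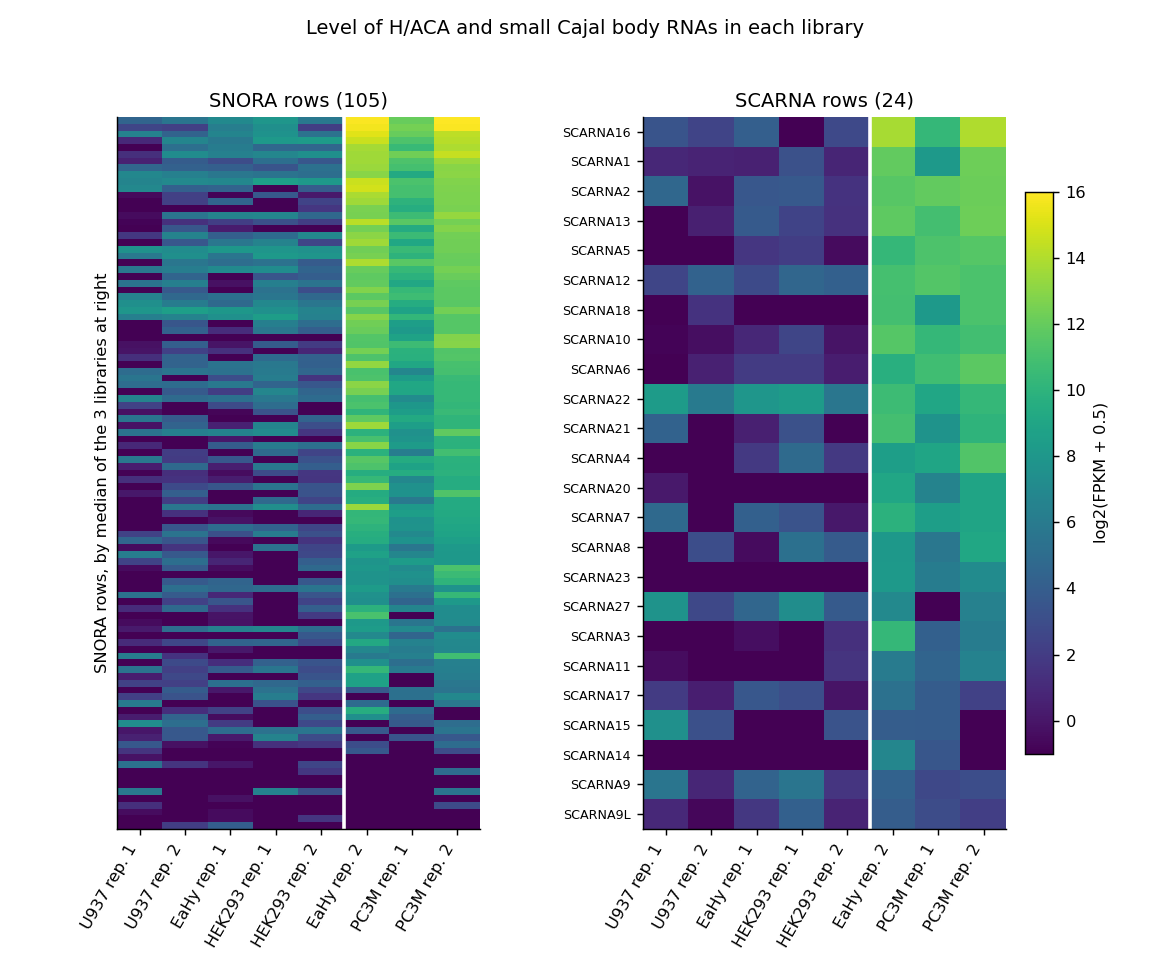
Level of each of the 105 SNORA rows (left) and 24 SCARNA rows (right) in each library as log2(FPKM + 0.5); columns are libraries, with EaHy replicate 2 and the PC3M libraries to the right of the white line. Most rows are bright in these 3 columns, where 69, 29 and 66 members reach 1000 FPKM, and dark in the other 5.

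Across the 129 members, the levels in the 3 libraries ran in parallel: Pearson's r of log2(FPKM + 0.5) was 0.849 for EaHy replicate 2 with PC3M replicate 1, 0.841 for EaHy replicate 2 with PC3M replicate 2 and 0.854 between the PC3M libraries. Duplicates of 1 line had r of 0.385 in U937, 0.455 in EaHy and 0.604 in HEK293, while U937 replicate 2 and HEK293 replicate 2 had 0.825. These values describe RNAs that share the same libraries and their depth, and are not tests. By r, EaHy replicate 2 was thus nearer to PC3M than to its own duplicate. Its r with the U937 replicates was 0.0832 and 0.435, and with those of HEK293 0.399 and 0.428. In EaHy replicate 1, 49 members were under 0.5 FPKM, and such low values limit what its r can show. The endothelial markers CDH5 and TEK stood at 115.6 and 42.3 FPKM in EaHy replicate 2, both above those of EaHy replicate 1, 79.8 and 21.2.

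EaHy replicate 2, PC3M replicate 1 and PC3M replicate 2 were compared with the other 5 libraries as a description without a test, because the libraries were singled out from the data. Members with at least 0.5 FPKM in at least 2 libraries, 123 of the 129, were kept as for all genes; SNORA11C, SNORA35, SNORA38, SNORA70D, SNORA70E and SNORA70F were not. Of the 129 members, 96 lay higher in all 3 libraries than in any of the 5, 0 lay lower in all 3, and 33 overlapped. The 96 are 78% of the members kept, against 2.06% of all 16295 genes kept; lower in all 3 were 0 members against 27.7% of genes. Because the filter can let a member in through its high libraries, it was also set on the 5 libraries alone, and 82 of 104 members (78.8%) were then higher in all 3, against 1.87% of 15684 genes. The median member differed by 6.75 between the medians of the 3 and of the 5 libraries on the log2(FPKM + 0.5) scale (quartiles 4.33 and 8.47), while the median gene differed by -0.85. Rescaling the libraries by their upper quartile gave 100 such members, and by their sum without small RNA and histone genes 96.

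The EaHy duplicates fell on opposite sides of this contrast. Because the 3 libraries were singled out from these same values, the counts below describe the split and add no support to it. The filter over all 8 libraries could also let a member in through EaHy replicate 2. In EaHy replicate 2, 113 of 123 members (91.9%) were higher than in replicate 1, with a median difference of 8.0 in log2(FPKM + 0.5). Of all genes 23.4% were higher, with a median difference of -0.50. The PC3M duplicates differed too: 112 of 123 members were higher in replicate 2, by a median of 2.01. The median absolute difference between duplicates was 2.43 for members against 0.61 for all genes in U937, 2.10 against 0.99 in PC3M, 2.28 against 0.45 in HEK293, and 8.0 against 0.64 in EaHy. Replicate spread of the members was thus wider than that of other genes in every line.

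The 12 SNORA rows with the highest median over the 8 libraries, led by SNORA61, SNORA70, SNORA64, SNORA18, SNORA10 and SNORA40, were all higher in the 3 libraries than in any of the 5. SNORA63, also called E3, is encoded in EIF4A2 and is required for cleavage of the ribosomal RNA precursor in Xenopus oocytes. SNORA63 stood at 21.5 and 47.9 FPKM in U937, 249 and 56.6 in HEK293, 134 and 60914 in EaHy, and 4234 and 65203 in PC3M, and 3 values stood clear of the rest, PC3M replicate 1 being the lowest of these. SNORA43 had the same 3 libraries on top in the same order, with 5.297 and 4.204 FPKM in U937, 179 and 3.702 in HEK293, 77.9 and 54361 in EaHy, and 5466 and 60966 in PC3M. SNORA48, from the EIF4A1 locus, reached 92.9 and 20.5 FPKM in U937, 201 and 41.1 in HEK293, 99.2 and 37884 in EaHy, and 4187 and 19848 in PC3M.

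Some members with high levels in the 5 low libraries had smaller gaps than the median member. SNORA61, whose host is the noncoding gene SNHG12, stood at 248 and 386 FPKM in U937, 182 and 94.7 in HEK293, 259.6 and 3033 in EaHy, and 438 and 5242 in PC3M, and its PC3M replicate 1 was only slightly above the highest low library, U937 replicate 2. SNORA40, from the TAF1D gene, stood at 191 and 153 FPKM in U937, 235 and 197 in HEK293, 257 and 4992 in EaHy, and 1475 and 5065 in PC3M, an even level in the 5 libraries and a clear step in the 3. Their differences between the medians of the 3 and the 5 were 3.61 and 4.66 in log2(FPKM + 0.5).

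TAF1D, which encodes a subunit of an RNA polymerase I factor, hosts several further members, and SNORA18 among them was at 81.6 and 96.4 FPKM in U937, 349 and 89.5 in HEK293, 185 and 7571 in EaHy, and 1210.0 and 2992 in PC3M. SNORA10 and SNORA64 both lie in RPS2, the gene of a small-subunit ribosomal protein. SNORA10 was at 57.5 and 176 FPKM in U937, 284 and 228 in HEK293, 48.1 and 5935 in EaHy, and 999 and 4525 in PC3M, and SNORA64 at 1.44 and 105 FPKM in U937, 296 and 328 in HEK293, 55.2 and 25703 in EaHy, and 2472 and 18432 in PC3M. Neighbours within 1 host thus took unlike values in U937 replicate 1, where SNORA64 was close to 0 and SNORA10 was not. SNORA70, hosted by the ribosomal protein gene RPL10, stood at 103 and 130.1 FPKM in U937, 374 and 265 in HEK293, 119 and 25994 in EaHy, and 2376 and 6905 in PC3M, and its near copies are treated further on.

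SNORA67, which shares the EIF4A1 locus with SNORA48, was at 2.003 and 154 FPKM in U937, 113 and 178 in HEK293, 83.6 and 12279 in EaHy, and 5102 and 23765 in PC3M. SNORA4, which shares EIF4A2 with SNORA63, was at 53.9 and 73.7 FPKM in U937, 154 and 21.9 in HEK293, 132 and 4164 in EaHy, and 1364 and 5509.6 in PC3M. SNORA6, from RPSA, the gene of the laminin receptor and ribosomal protein SA, was at 175 and 69.3 FPKM in U937, 123 and 49.98 in HEK293, 27.6 and 5749.7 in EaHy, and 726 and 3174 in PC3M. All 3 kept the same split between the 3 and the 5 libraries, and in all 3 PC3M replicate 1 was the lowest of the high values.

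Among the widest gaps were those of members at or near 0 in most of the 5 libraries. SNORA38B, from NOL11, differed by 13.58 between the medians, with 0 and 0 FPKM in U937, 0 and 2.796 in HEK293, 0 and 6111 in EaHy, and 785 and 6191 in PC3M. SNORA34, from KANSL2, differed by 13.41, with 0 and 11.2 FPKM in U937, 0 and 0 in HEK293, 0.727 and 5459 in EaHy, and 709.9 and 7297 in PC3M. SNORA74A, also called U19, differed by 12.49, with 0.162 and 4.09 FPKM in U937, 12.9 and 0.627 in HEK293, 0.0516 and 14514 in EaHy, and 2018 and 6491 in PC3M. For these RNAs the size of the gap depends on the 0.5 added before the logarithm, since the median of the 5 is at or near 0.

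SNORA28, from the translation factor gene EIF5, was listed at 0 in U937, EaHy replicate 1 and HEK293 and at 2863 in EaHy replicate 2, 435 in PC3M replicate 1 and 7449 in PC3M replicate 2. SNORA37 was at 0 and 0 FPKM in U937, 0 and 0 in HEK293, 0.555 and 2154 in EaHy, and 226 and 972 in PC3M. SNORA74B was at 0.355 and 0 FPKM in U937, 9.84 and 0 in HEK293, 0.0744 and 1139 in EaHy, and 350.0 and 1466 in PC3M, and SNORA80B, from the ornithine decarboxylase gene ODC1, at 0.421 and 4.45 FPKM in U937, 0 and 1.25 in HEK293, 2.05 and 5471 in EaHy, and 948 and 2639.7 in PC3M. The 3 libraries held every sizeable value of these 4 RNAs. SNORA79 was at 0 in the 5 libraries and at 217 FPKM in EaHy replicate 2, 193 in PC3M replicate 1 and 1516 in PC3M replicate 2.

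Of the 24 SCARNA rows, 18 lay higher in all 3 libraries than in the 5. By type these were 12 of 15 H/ACA, 4 of 4 mixed and 2 of 5 C/D rows; the types hold too few rows, and share too many libraries, for a test between them. The summed SCARNA level was 860 and 118 FPKM in U937, 703 and 133 in HEK293, 386.5 and 41072 in EaHy, and 17834 and 50394 in PC3M. PC3M replicate 1 was therefore the lowest of the 3 libraries here too, as for the SNORA sums of 565644 in EaHy replicate 2, 72810 in PC3M replicate 1 and 412885 in PC3M replicate 2.

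The mixed RNAs direct both pseudouridylation and 2′-O-methylation of spliceosomal RNAs, SCARNA10 on U5 RNA. SCARNA10 stood at 0.0674 and 0.268 FPKM in U937, 5.27 and 0.423 in HEK293, 1.33 and 2940.0 in EaHy, and 1302 and 1890.5 in PC3M. SCARNA5 and SCARNA6 are both encoded in the autophagy gene ATG16L1. SCARNA5 stood at 0 and 0 FPKM in U937, 3.72 and 0.222 in HEK293, 2.66 and 1251 in EaHy, and 2439.9 and 2939.9 in PC3M, and SCARNA6 at 0 and 0.952 FPKM in U937, 3.29 and 0.756 in HEK293, 3.47 and 842 in EaHy, and 1728 and 3314 in PC3M. For both, EaHy replicate 2 was the lowest of the 3 high libraries, unlike for SNORA63. SCARNA12, from PHB2, had a higher base level, with 5.42 and 19.8 FPKM in U937, 24.3 and 18.3 in HEK293, 6.56 and 1996 in EaHy, and 2827 and 2276 in PC3M.

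Among H/ACA-type SCARNA rows, SCARNA13, a tandem RNA hosted by SNHG10, was at 7.99e-205 and 0.901 FPKM in U937, 4.84 and 2.13 in HEK293, 13.5 and 3455 in EaHy, and 1908 and 4949 in PC3M. SCARNA16 was at 10.2 and 5.13 FPKM in U937, 0 and 6.33 in HEK293, 16.8 and 14029.6 in EaHy, and 1304 and 16323 in PC3M, the highest SCARNA value in the table. SCARNA1 was at 1.35 and 1.104 FPKM in U937, 8.997 and 1.21 in HEK293, 0.956 and 3935 in EaHy, and 290.4 and 4888 in PC3M. In SCARNA1 and SCARNA16 PC3M replicate 1 was more than 10 times below the other high libraries, and in SCARNA13 it was not. SCARNA18 was at 0 and 2.34 FPKM in U937, 0 and 0 in HEK293, 0 and 1895 in EaHy, and 291 and 2381 in PC3M, and SCARNA21, from the chromatin remodeller gene CHD3, at 19.8 and 0 FPKM in U937, 8.84 and 0 in HEK293, 0.887 and 1968 in EaHy, and 216 and 1053 in PC3M.

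SCARNA4 was at 0 and 0 FPKM in U937, 28.4 and 3.05 in HEK293, 2.96 and 373 in EaHy, and 509 and 2633 in PC3M. SCARNA22, hosted by the histone methyltransferase gene NSD2, was the SCARNA with the highest base level, 322 and 62.99 FPKM in U937, 319.9 and 51.5 in HEK293, 247 and 1602 in EaHy, and 530.2 and 1279.8 in PC3M. The 3 libraries were again the top 3, yet the step was small, 2.37 between the medians in log2(FPKM + 0.5). Among low-level H/ACA rows were SCARNA11, with 67.5, 22.2 and 94.4 FPKM in EaHy replicate 2, PC3M replicate 1 and PC3M replicate 2, SCARNA23 with 278, 68.5 and 144.5, SCARNA20 with 529, 95.8 and 482, SCARNA8 with 269.7, 53.1 and 548, and SCARNA3 with 1274, 18.2 and 68.5. In all 3 libraries these 5 RNAs were above their highest value in the other 5. SCARNA14 was not: it stood at 113 FPKM in EaHy replicate 2 and 11.1 in PC3M replicate 1 and was listed at 0 in PC3M replicate 2 and in the other 5.

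Of the C/D-type rows, SCARNA2, which guides methylation of U2 RNA and has its own promoter rather than a host intron, was at 25.6 and 0.399 FPKM in U937, 13.1 and 2.26 in HEK293, 11.8 and 3049 in EaHy, and 3799 and 4544 in PC3M. SCARNA7, hosted by the importin gene KPNA4, was at 27.5 and 0 FPKM in U937, 9.74 and 0.565 in HEK293, 18.4 and 988 in EaHy, and 378 and 481 in PC3M. SCARNA9, by contrast, was at 48.5 and 1.299 FPKM in U937, 47.6 and 2.65 in HEK293, 20.9 and 19.6 in EaHy, and 6.004 and 7.69 in PC3M, and was not higher in the 3 libraries. SCARNA9L was at 1.49 and 0.118 FPKM in U937, 18.1 and 1.12 in HEK293, 2.803 and 15.6 in EaHy, and 7.24 and 3.97 in PC3M, and SCARNA17 at 3.32 and 0.873 FPKM in U937, 8.08 and 0.416 in HEK293, 11.9 and 39.9 in EaHy, and 15.2 and 4.27 in PC3M. The C/D rows therefore held both patterns. SCARNA2, SCARNA7 and SCARNA17 are annotated at 420, 330 and 144 nt, while no length was matched to SCARNA9 and SCARNA9L.

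The 33 members that overlapped included the 6 that failed the filter. Of the 27 others, 20 had a higher median in the 3 libraries than in the 5, 3 had equal medians and 4 had a lower one: SCARNA9, SNORA16B, SNORA36A and SNORA69. SNORA16B was at 42 and 2.41 FPKM in U937, 0 and 5.44 in HEK293, 0.501 and 0 in EaHy, and 0 and 0 in PC3M, which places every value above 0 in the 5 libraries. SNORA69, from the X-linked ribosomal protein gene RPL39, was at 0.504 and 12.4 FPKM in U937, 41.7 and 47.5 in HEK293, 33.2 and 13.1 in EaHy, and 0 and 45.8 in PC3M, with no separation of the libraries.

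Both RNAs encoded in the dyskerin gene itself, SNORA36A and SNORA56, were among the overlapping members. SNORA36A was at 57.2 and 0 FPKM in U937, 91.1 and 8.88 in HEK293, 0 and 0 in EaHy, and 0 and 48.2 in PC3M, and SNORA56 at 152 and 34.9 FPKM in U937, 0 and 6.09 in HEK293, 3.33 and 0 in EaHy, and 14.1 and 32.9 in PC3M. DKC1, the host gene, was at 43.6 and 84.1 FPKM in U937, 61.5 and 91.8 in HEK293, 45.1 and 20.3 in EaHy, and 59.6 and 12.7 in PC3M. SNORA32 and SNORA41 were detected in most libraries without a step: SNORA32 was at 0.672 and 33.7 FPKM in U937, 109 and 31.04 in HEK293, 82.5 and 337 in EaHy, and 129 and 40.7 in PC3M, and SNORA41 at 0 and 14.8 FPKM in U937, 41.7 and 5.59 in HEK293, 0.588 and 13.1 in EaHy, and 38.6 and 45.8 in PC3M.

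Some overlaps came from a single library. SNORA11B was at 0 and 0 FPKM in U937, 0 and 3.23 in HEK293, 0.425 and 2174 in EaHy, and 0 and 156 in PC3M, and SNORA77 at 0.776 and 5.999 FPKM in U937, 0 and 10.3 in HEK293, 0 and 425 in EaHy, and 0 and 73.1 in PC3M, each at 0 in PC3M replicate 1 and otherwise highest in the remaining high libraries. SNORA42 was at 73.3 and 2.34 FPKM in U937, 0 and 0 in HEK293, 0 and 61.5 in EaHy, and 84.8 and 1786 in PC3M, where U937 replicate 1 exceeded EaHy replicate 2. SNORA66 was at 42 and 14.4 FPKM in U937, 0 and 10.9 in HEK293, 1.34 and 190.2 in EaHy, and 37.5 and 1339.7 in PC3M, where U937 replicate 1 exceeded PC3M replicate 1 by a little. Other overlaps came from several libraries. SCARNA27 was at 213 and 5.83 FPKM in U937, 161 and 13.3 in HEK293, 23.99 and 127 in EaHy, and 0 and 89.04 in PC3M. SCARNA15 was at 181 and 8.51 FPKM in U937, 0 and 9.69 in HEK293, 0 and 15.3 in EaHy, and 15.1 and 0 in PC3M. Both had their highest value in U937 replicate 1.

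Host genes were taken from GENCODE by position and strand: 114 members lay inside 1 named gene, 4 inside several, 2 inside none (SCARNA2 and SNORA70G), and 9 had no unique sequence. For 102 kept members the host was also kept, which gave 83 hosts. The hosts did not follow the members. Of the 83 hosts, 1 (EIF5) was higher in all 3 libraries than in the 5, 20 were lower and 62 overlapped. Of all genes 2.06% were higher and 27.7% lower, so the host counts were near the background shares. The median host difference was -0.85 in log2(FPKM + 0.5), as for all genes. Members in these hosts had a median difference of 6.56. Of the 81 such members higher in all 3 libraries, 20 had a host that was lower in all 3 and 60 a host that overlapped.

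Across these 102 members Pearson's r between the member's and the host's difference was 0.183, a description of RNAs that share the same 8 libraries and in part the same host. Members exceeded their host in 18 and 15 cases in U937, 24 and 12 in HEK293, 15 and 90 in EaHy, and 73 and 92 in PC3M. The median log2 ratio of member to host was -4.11 and -3.14 in U937, -3.47 and -3.47 in HEK293, -3.74 and 5.74 in EaHy, and 2.60 and 6.09 in PC3M. In listed FPKM the median member lay under its host in the 5 libraries and over it in the 3. How RNAs shorter than the insert were scaled is not given, so the sign of a ratio does not give relative abundance.

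**Figure D2:**
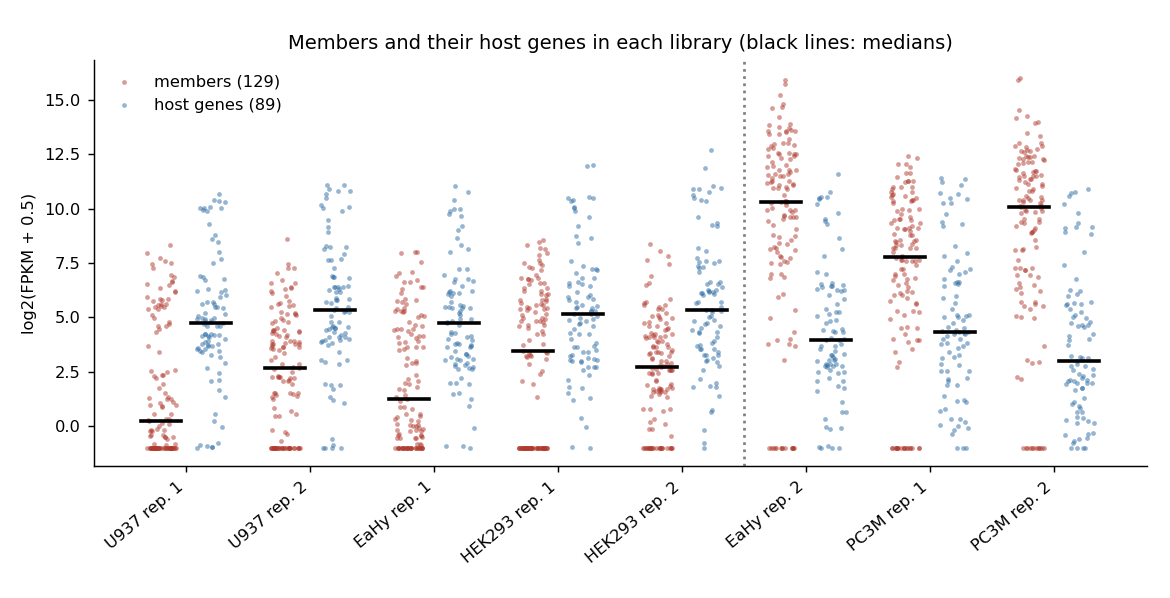
log2(FPKM + 0.5) of the 129 members (red) and of the 89 genes in the table that host 1 or more of them (blue), 1 point per gene and library, with medians as black lines; the dotted line separates EaHy replicate 2 and the PC3M libraries at right. Member medians rise from at most 10.4 FPKM at left to between 215.5 and 1257 FPKM at right, and host medians do not.

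EIF4A2, host of SNORA63, was at 104 and 116 FPKM in U937, 113 and 99.8 in HEK293, 86.4 and 134 in EaHy, and 107 and 62.9 in PC3M, a range without a step. TAF1D, host of SNORA40, was at 27.6 and 19.3 FPKM in U937, 45.2 and 33.1 in HEK293, 34.5 and 9.504 in EaHy, and 6.42 and 2.65 in PC3M, lower in all 3 libraries in which SNORA40 was higher. Lower in all 3 were also 27.7% of all genes. EIF5, host of SNORA28, was at 28.2 and 57.1 FPKM in U937, 28.96 and 38.8 in HEK293, 44.4 and 57.8 in EaHy, and 151 and 170.5 in PC3M, and was the only host higher in all 3 libraries, with EaHy replicate 2 just above U937 replicate 2. NCAPD2, the condensin gene that hosts SCARNA10, was at 36.7 and 51.5 FPKM in U937, 43.4 and 70.8 in HEK293, 47.5 and 15.3 in EaHy, and 19.6 and 4.599 in PC3M.

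**Figure D3:**
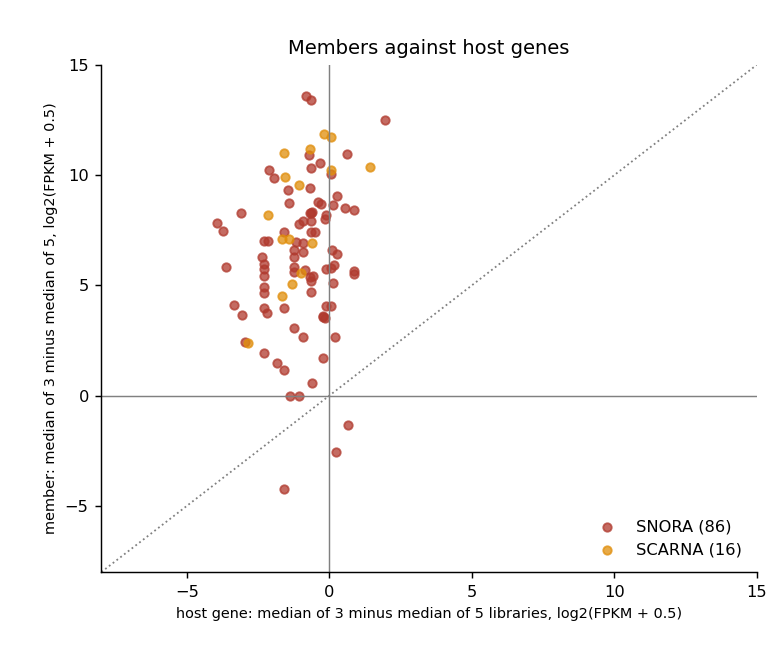
Difference between the median of EaHy replicate 2 and the PC3M libraries and the median of the other 5, in log2(FPKM + 0.5), for the host gene (x axis) and the member (y axis); each point is 1 of 86 SNORA or 16 SCARNA members, and the dotted line marks equal differences. Most points lie far above the dotted line, with a median of 6.56 for members and -0.85 for hosts.

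The C/D box RNAs, the other class of small nucleolar RNA, were set beside the members. Of 139 SNORD rows kept, 8 were higher in all 3 libraries (5.76%) and 15 lower (10.8%), and their median difference was -6.15, opposite in sign to the members' 6.75. In EaHy replicate 2 and PC3M replicate 1, 241 of the 252 SNORD rows were listed at 0, whereas 14 and 19 of the 129 members were. In PC3M replicate 2, 168 SNORD rows were at 0, within the range of 129 to 170 in the other 5 libraries, and 12 members were. No test was made of this difference between classes, since both were seen in the same 8 libraries.

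The 2 classes differ in length, and among the SNORD RNAs the library difference moved with annotated length. SNORD RNAs of up to 100 nt had a median difference of -6.45. Of these 106, 0 were higher and 12 lower in all 3 libraries. All 7 SNORD RNAs of over 120 and up to 300 nt were higher in all 3, by 5.79 to 14.1 (SNORD10, SNORD15A, SNORD15B, SNORD17, SNORD22, SNORD94 and SNORD97, named after their values were seen). Members of over 120 and up to 140 nt were higher in all 3 in 70 of 92 cases with a median difference of 6.35, those of over 140 and up to 200 nt in 11 of 13 cases, those of over 200 and up to 300 nt in 6 of 6, and the 3 longer ones in 3 of 3. C/D RNAs of the same length as the members thus took the same side as the members.

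Outside the snoRNA classes, 4 of 11 other short genes of over 120 and up to 300 nt were higher in all 3 libraries, and these were the minor spliceosome RNAs RNU11, RNU12, RNU4ATAC and RNU6ATAC, named after their values were seen. Of 38 histone genes of over 300 and up to 1000 nt, 32 were higher, with a median difference of 6.41. Of 192 other genes in that length range 4 were higher, with a median difference of -0.99, and of 309 MIR rows of up to 100 nt 0 were. Of 11 MIR rows of over 120 and up to 300 nt, the length range of most members, 0 were higher in all 3 libraries. Their median difference was 0 at over 120 to 140 nt and -1.44 at over 140 to 200 nt, though MIR3652 and MIR1307 differed by 7.34 and 4.68. These counts differed by class at like annotated length, and the length of the RNA sequenced is not known. RNA class and length overlap among the short genes. The part of length, fragment selection or RNA isolation in the contrast was not tested.

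**Figure D4:**
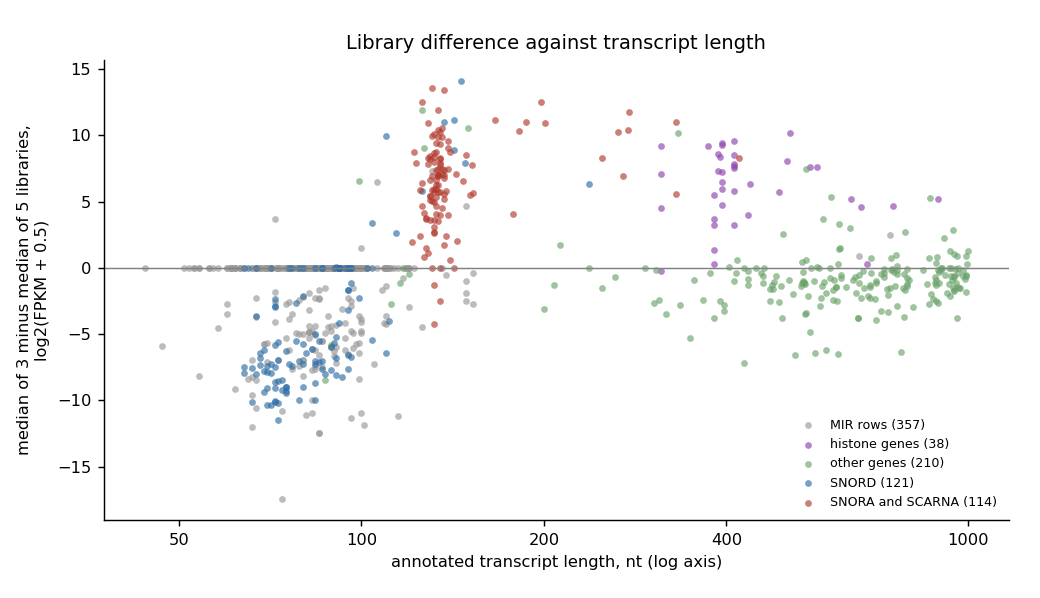
Difference between the median of EaHy replicate 2 and the PC3M libraries and the median of the other 5, in log2(FPKM + 0.5), against annotated transcript length on a log axis for 114 members, 121 SNORD, 357 MIR, 38 histone and 210 other genes of up to 1000 nt. Most members lie above 0, with a median of 6.75 over all kept, SNORD RNAs of up to 100 nt have a median of -6.45, and the 7 SNORD RNAs of over 120 and up to 300 nt lie with the members.

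The study's own comparisons set each EET-binding line against HEK293. All 16295 genes were fitted together with limma on log2(FPKM + 0.5), p-values were adjusted over all of them by the Benjamini-Hochberg method, and an adjusted p under 0.05 was called. Among the members the moderated F test for any difference between the 4 lines called 17 of 123 (13.8%), 7 SCARNA and 10 SNORA rows, against 33.2% of all genes; 54 had an unadjusted p under 0.05. In this fit, which takes in the unlike EaHy duplicates, the members were thus called less often than the background share. Their median absolute difference between the EaHy duplicates was 8.0, against 0.64 for all genes. The member count moved widely when libraries were left out, and it rose far without either EaHy library. The order of the 2 shares therefore belongs to this fit alone, and no background share is given for the other fits.

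In PC3M against HEK293, 29 of 123 members were higher (12 SCARNA and 17 SNORA rows; 63 at an unadjusted p under 0.05) and 0 were lower (0 unadjusted). Of all genes 2.39% were higher and 25.3% lower, so the members ran against the general direction. The median member difference was 5.54, positive for 115 of 123, against -1.26 for all genes; quantile normalization brought the latter to 0.00 and left the former at 5.53, while the calls fell to 12 members. With a robust prior 1 member was called, with no filter on low values 3, and with the stricter filter of 1 FPKM in 4 libraries 47. With only PC3M and HEK293 fitted, which leaves out the spread of the EaHy duplicates, 96 of 118 members were called, all higher. Of the 29, 28 were among the 96 members higher in all 3 libraries, where 78% of the 123 members stood. Both sets were drawn from the same PC3M and HEK293 values, so their overlap adds no support. Adjusted p (limma) of the 29 ran from 0.0142 to 0.0489. In 11 of the 29 both HEK293 libraries were listed at 0, and for these no fold is given.

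SCARNA6 rose in PC3M by 10.10 ± 2.07 in log2(FPKM + 0.5) (SE, 2 libraries per line, adjusted p = 0.0142, limma). Each SE was pooled over all lines, so for a given RNA it was the same in U937, EaHy and PC3M. It takes in the unlike EaHy duplicates (3.47 and 842 FPKM for SCARNA6) and does not measure the spread of PC3M and HEK293 alone. SCARNA5 rose by 10.58 ± 2.29 (adjusted p = 0.0166), and SCARNA13 by 9.68 ± 2.12 (adjusted p = 0.0172). The HEK293 values of these 3 were at most 4.84 FPKM and the PC3M values at least 1728 FPKM. SCARNA16, a guide of U1 RNA, rose by 11.29 ± 2.78 (adjusted p = 0.0241), SCARNA2 by 9.41 ± 2.44 (adjusted p = 0.0279) and SCARNA10 by 9.41 ± 2.76 (adjusted p = 0.0391).

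Of the SNORA rows, SNORA71D, hosted by SNHG17, rose in PC3M by 10.62 ± 2.68 (adjusted p = 0.0257) from 0 and 4.74 FPKM in HEK293 to 1002 and 6468. SNORA80B rose by 10.72 ± 2.90 (adjusted p = 0.0313), and SNORA43 by 9.38 ± 2.88 (adjusted p = 0.0441). Several abundant members did not pass in the fit of all lines. SNORA63 differed by 7.12 ± 2.53 (adjusted p = 0.0661), and SNORA40 and SCARNA22 had adjusted p of 0.066 and 0.142. Because the SE holds the EaHy spread, this does not show that PC3M and HEK293 were alike in them. SNORA34 and SNORA28, at 0 in both HEK293 libraries and at 710 and 7297 and at 435 and 7449 FPKM in PC3M, passed with adjusted p of 0.0326 and 0.0335.

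These calls rested on few libraries. With a term for the 3 high libraries, which leaves the EaHy duplicates to estimate their shift, 0 members were called in PC3M (14 at an unadjusted p under 0.05; 0 of all genes were called) and the median member difference was -1.93 against -0.72 for all genes. Without PC3M replicate 1 or 2 the median member difference was 6.6 or 4.52, against -1.75 and -0.82 for all genes. Without HEK293 replicate 1 or 2 it was 5.3 or 5.35, against -1.4 and -1.05 for all genes. Without EaHy replicate 1 or 2 it was 5.54 in each fit. Calls among all genes also fell without PC3M replicate 2 or without either HEK293 library, so a loss of calls there was not particular to the members. Both PC3M libraries are among the 3, so line and library set cannot be told apart in PC3M alone.

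In EaHy against HEK293, 0 members were higher (14 at an unadjusted p under 0.05) and 2 were lower, against 4.55% and 9.8% of all genes. SNORA29, one of the RNAs encoded in the chaperonin gene TCP1, fell by 5.11 ± 1.34 (adjusted p = 0.0377). Its values were 0.998 and 12.05 FPKM in U937, 96.3 and 6.74 in HEK293, 0.683 and 0 in EaHy, and 10.2 and 12.5 in PC3M, and the EaHy values were the lowest pair. SNORA5B, from TBRG4, was at 4.16 and 9.89 FPKM in U937, 73 and 2.796 in HEK293, 0 and 0 in EaHy, and 38.6 and 122 in PC3M; both EaHy libraries were listed at 0, so no fold is given (limma adjusted p = 0.0404). Its call was lost without EaHy replicate 1, EaHy replicate 2, PC3M replicate 1, PC3M replicate 2, U937 replicate 2 or HEK293 replicate 1 (adjusted p 0.0129 to 0.227 over all alternatives), and that of SNORA29 without EaHy replicate 2, either PC3M library or HEK293 replicate 1 (0.0229 to 0.243).

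The median member difference in EaHy was 3.05, positive in 109 of 123, yet it is the mean of unlike duplicates. Without EaHy replicate 2 it was -0.43, against -0.40 for all genes, and positive in 47 of 122 members. Without EaHy replicate 1 it was 7.15, against -1.03 for all genes, and positive in 113 of 122 members. The direction for the members in EaHy therefore changed with the library kept. Without PC3M replicate 1, PC3M replicate 2 or HEK293 replicate 1 the median member difference in EaHy was 3.02, 3.15 or 3.34, and without U937 replicate 2 it was 3.1.

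In U937 against HEK293, where neither line holds any of the 3 high libraries, 1 member was higher and 0 were lower, against 4.47% and 10.6% of all genes; 1 member in each direction had an unadjusted p under 0.05. The median member difference was -0.98, positive in 42 of 123, against -0.22 for all genes. SNORA56, encoded in DKC1, rose by 5.34 ± 1.41 (adjusted p = 0.0374) from 0 and 6.09 FPKM in HEK293 to 151.7 and 34.9 in U937. The groups did not overlap, and the call was lost without either U937 library, either PC3M library or HEK293 replicate 1 (adjusted p 0.0165 to 0.273 over all alternatives). Without EaHy replicate 1 or 2 the median member difference in U937 was -0.98 in each fit.

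The protein partners of the H/ACA RNAs did not rise with them. Of the 4 core proteins 0 were higher and 1 lower in PC3M than in HEK293, where 25.3% of all genes were lower, so such counts are near the background share. DKC1 was listed above with SNORA56. NHP2 was at 53.7 and 185 FPKM in U937, 149.7 and 335 in HEK293, 61.1 and 57.8 in EaHy, and 286 and 76.6 in PC3M, and NOP10 at 126 and 302 FPKM in U937, 72.4 and 129 in HEK293, 97.2 and 88.4 in EaHy, and 155 and 53.1 in PC3M; neither passed the test in any line. GAR1 was at 16.9 and 39.2 FPKM in U937, 20.5 and 41.9 in HEK293, 22.7 and 3.18 in EaHy, and 4.19 and 0.657 in PC3M, and in PC3M fell by 3.68 ± 1.06 (adjusted p = 0.037). Of the 5 assembly factors 1, NAF1, which binds the particle before GAR1 does, fell in PC3M, by 3.72 ± 0.85 (adjusted p = 0.0196), and 0 of the 5 rose.

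Of the 5 Cajal body and telomerase genes, SMN1 fell in PC3M by 2.69 ± 0.74 (adjusted p = 0.0327), and TERC rose. WRAP53, the binder of the CAB box, was at 3.13 and 15.4 FPKM in U937, 11.5 and 20.9 in HEK293, 9.71 and 6.52 in EaHy, and 6.32 and 2.69 in PC3M and coilin (COIL) at 16.7 and 25.1 FPKM in U937, 18.2 and 25.8 in HEK293, 11.6 and 9.899 in EaHy, and 10.5 and 6.14 in PC3M; neither passed. TERC, the telomerase RNA, has an H/ACA domain but lies outside the SNORA and SCARNA symbols. It was at 0.891 and 0.349 FPKM in U937, 6.15 and 3.22 in HEK293, 3.93 and 267 in EaHy, and 648 and 893 in PC3M, with the same 3 libraries high, and rose in PC3M by 7.26 ± 1.59 (adjusted p = 0.0172). The maturation genes PARN, PAPD5 and TOE1 did not pass in any line, and of the 4 C/D core proteins 1, fibrillarin (FBL), fell in PC3M, by 3.21 ± 0.88 (adjusted p = 0.0329).

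Independently transcribed noncoding RNAs took part in the same contrast. RMRP, the RNA of RNase MRP, was at 648 and 12.3 FPKM in U937, 1131 and 39.7 in HEK293, 489.8 and 275616 in EaHy, and 475789 and 506736 in PC3M, and rose in PC3M by 11.17 ± 2.96 (adjusted p = 0.0296). RPPH1, the RNA of RNase P, was at 405 and 3.72 FPKM in U937, 253 and 3.52 in HEK293, 563 and 441229 in EaHy, and 284680.0 and 0 in PC3M, high in EaHy replicate 2 and PC3M replicate 1 and at 0 in PC3M replicate 2, and passed in no line. The contrast therefore reached RNAs that are not cut from introns.

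Low member values fell on shared steps. In U937 replicate 2, SNORA13, SNORA15, SNORA16B, SNORA21, SNORA33 and SNORA66, chosen after their values were seen, were 1, 5, 1, 5, 12 and 6 times a step of 2.41 FPKM. In HEK293 replicate 2 the same 6 RNAs were 1, 1, 1, 1, 5.5 and 2 times a step of 5.44 FPKM. Between 2 and 24 members per library shared their exact value with another member. Such steps may stand for single fragments or shares of them, though 5.5 is not a whole number and the table holds no counts. The precision of low values, and of a fold against the low libraries, is therefore unknown.

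Near copies add a further limit. At 90% identity or more, 6 pairs were found among the 120 sequences, holding 11 members. SNORA7A and SNORA7B were identical at 98.6% of positions, and SNORA36A and SNORA36C at 96.97%. SNORA7A was at 0 and 35.8 FPKM in U937, 25 and 23.8 in HEK293, 68.5 and 13455 in EaHy, and 1429.6 and 15482 in PC3M, and SNORA7B at 0 and 18.5 FPKM in U937, 53.8 and 16.1 in HEK293, 1.73 and 4461 in EaHy, and 293.2 and 2870.1 in PC3M, so both had the 3 libraries highest. SNORA70 shared 90.4% with SNORA70B and SNORA70C, which had no value over 12.3 FPKM. How fragments that fit several copies were shared out is not given in the sources used here, so the split between the copies is uncertain. SNORA59A and SNORA59B had the same value in U937 replicate 2 and in both HEK293 libraries, 3.76, 27.9 and 4.98 FPKM, and were at 0 together in U937 replicate 1 and EaHy replicate 1.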

How the data were processed

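The authors deposited a single table of FPKM per gene symbol with 1 column for each of 8 libraries. Per the submitters' processing notes, cutadapt, TopHat2 2.0.11 and Cufflinks 2.2.1 were used with build hg19. How RNAs shorter than the library insert were treated is not given in the sources used here; it bears on the scale of every member value. Counts and depth are unknown, so no counting intervals are given.

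FPKM were analysed as log2(FPKM + 0.5), which understates changes of low genes. The 16295 of 23615 genes that reached 0.5 FPKM in 2 or more libraries were fitted with limma 3.58.1 in R 4.3.3, with line as the only term, a prior spread following expression, and two-sided moderated tests adjusted over all genes by Benjamini-Hochberg. The procedure was tested on simulated data. The contrast of 3 with 5 libraries has no test. Sequences, lengths and hosts came from GENCODE v29 (GRCh38); no coordinates are given because the builds differ.

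Members, lists and tests were chosen with earlier results of these data known. Named were the SCARNA rows, the 12 SNORA rows with the highest median, up to 6 called members per direction and comparison, up to 8 SNORA rows by gap between the 3 and the 5 libraries, the listed partner genes and host genes; further members, named as examples, were chosen after their values were seen. Alternatives covered pseudocount, filter, scaling, prior, replicate number, leaving libraries out and a term for the 3 libraries.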

Additional observations from a re-analysis of the deposited data

How the results depend on the processing

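The contrast of the 3 libraries with the other 5 gave 96 members, and 96 to 100 when the libraries were rescaled. Counting values under 0.5 FPKM as 0 raised the share of member values at 0 from 21.9% to 26.1%. The limma counts moved with most settings, and the cause was not tested. Calls among all genes moved as well when single libraries were left out, so those counts do not describe the members alone. Members differing between any lines numbered 17, and 3 with no filter, 43 with a filter of 1 FPKM in 4 libraries, 11 with upper-quartile scaling, 9 with a single prior spread, 1 with a robust prior and 5 without the 3 libraries. Leaving out single libraries gave 1 to 98.

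In U937 the count of 1 became 0 with a pseudocount of 0.1, no filter, upper-quartile or sum scaling, a single prior spread or a robust prior, 5 with only the lines compared or without the 3 libraries, and 4 with a term for them; leaving out single libraries gave 0 to 4. In EaHy the count of 2 became 1 with a pseudocount of 1, a robust prior or without the 3 libraries, and 0 with no filter, upper-quartile, quantile or sum scaling or a single prior spread; leaving out single libraries gave 0 to 83. In PC3M the count of 29 became 3 with no filter, 47 with the stricter filter, 11 with upper-quartile scaling, 12 with quantile normalization, 1 with a robust prior, 96 with only the lines compared and 0 with a term for the 3 libraries; leaving out single libraries gave 0 to 81. That term turned the fitted PC3M values of SNORA28 to -0.67, SNORA80B to -0.34 and SCARNA18 to -1.19; SNORA28 and SCARNA18 are at 0 in both HEK293 libraries, so their fitted values depend on the pseudocount and are no folds. The last 2 settings, leaving out the 3 libraries together and the term for them, were added after seeing the data.

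With the replicate number as a block the counts were 29 for any lines, 0 in U937, 4 (all higher) in EaHy and 38 in PC3M; the labels give no pairing. The difference between replicate numbers correlated across genes by 0.33 for U937 with HEK293 and by -0.15 to 0.10 for the other pairs of lines.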
